A study of Mus musculus with 12 samples.

Results

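The vagina of newborn mice without Trp63 function in Pax2-cre cells was set against the uterus of newborn control mice, to ask which features that part the vagina from the uterus are still present where Trp63 cannot act. The members are 8 of the 12 arrays of the study, chosen by their titles: 4 of Trp63 cKO vagina and 4 of Trp63 cHet uterus. The cKO mice carried Trp63 flox/floxt ; Pax2-cre and the cHet mice carried Trp63 flox/wt ; Pax2-cre, so the controls carry the transgene and 1 floxed copy too. All were female, at postnatal day 3 and of mixed strain (C57BL/6, S129/5 and CD-1), and each array read 1 pool of tissue from 3 mice. The other 4 arrays, of Trp63 cHet vagina with the genotype and age of the uterus group, are given beside the comparison. Organ and genotype change together between cKO vagina and cHet uterus, so the part of each cannot be told apart in this comparison alone. Loss of Trp63 is limited to cells with a history of Pax2-cre, and the labels do not place the floxed stretch within Trp63.

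The uterus and the upper vagina both form from the Müllerian ducts, a pair of simple epithelial tubes wrapped in mesenchyme. In the vagina, signals of the mesenchyme, among them BMP4, activin A and FGF7 or FGF10, are known to switch on Trp63 in the epithelium together with Runx1, and p63, the protein of Trp63, then drives a stratified squamous epithelium with basal keratins and hemidesmosomes. In the uterus Trp63 stays off and the epithelium remains a simple columnar layer that later forms glands. Hox genes are expressed in a nested order along the tract, with the highest-numbered genes at the caudal end.

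The arrays gave a level for 11271 genes, as log2 of background-corrected and normalised intensity, and a gene was called where limma's adjusted p (Benjamini-Hochberg over those genes, two-sided) was under 0.05. In cKO vagina 996 genes were higher and 1054 lower than in cHet uterus, or 8.84% and 9.35% of the genes tested, and 381 and 303 of them differed at least 2-fold. The median difference over all genes was -0.02 (log2). With the arrays centred on their medians in place of quantile normalization that median moved to 0.13 and the calls split into 1459 higher and 642 lower, so small differences are read relative to it. Called genes made up 18.2% of all genes tested, and genes whose 4 and 4 arrays did not overlap made up 10.4% on the higher side and 11.1% on the lower side. Of the 996 higher genes 106 were above background on no uterus array, and of the 1054 lower genes 46 were above background on no cKO vagina array. Within-group correlations across genes were 0.972 to 0.985 in cKO vagina and 0.979 to 0.991 in cHet uterus, with 0.942 to 0.960 between them, and 39.4% to 46.3% of probes were above background on the 12 arrays. The first principal component (48.1% of the variance) parted the uterus from both vaginal groups, and the second (14.8%) parted replicates 1 and 2 of every group from 3 and 4. Replicates 1 and 2 alone gave 626 higher and 690 lower genes, and replicates 3 and 4 alone gave 1106 and 840. The samples are pools, so p-values measure the spread between pools, and fewer cells of a type cannot be told apart from less RNA per cell.

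**Figure D1:**
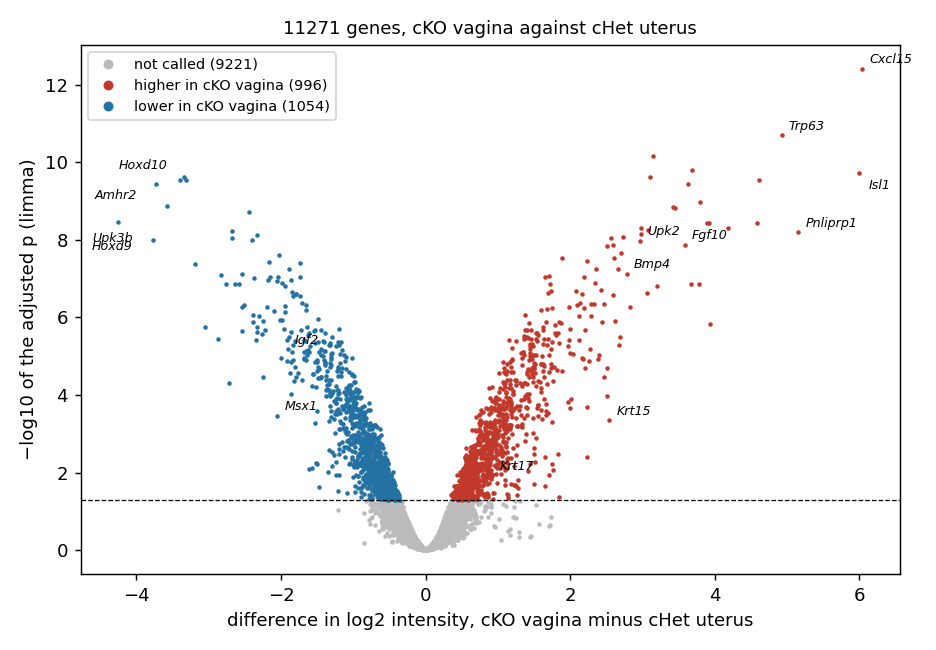
Each point is 1 of 11271 genes; the x axis is the difference in log2 intensity, cKO vagina minus cHet uterus, the y axis is −log10 of the adjusted p, and the dashed line marks 0.05. Isl1 lies at 6.00 among the 996 higher genes and Upk3b at -4.26 among the 1054 lower genes. Genes above background on no array of a group, Cxcl15 among them, are plotted at their fitted difference, which is no exact size.

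Homeobox genes that mark position along the tract differed widely between cKO vagina and cHet uterus. Isl1, a LIM homeobox factor of caudal and genital mesenchyme, had log2 levels of 9.99, 9.90, 10.75 and 10.80 in cKO vagina replicates 1 to 4, against 4.19, 4.20, 4.5 and 4.56 in cHet uterus. The groups lie far apart, and the uterus was above background on 1 of 4 arrays. The difference was 6.00 (SE 0.25, adjusted p = 1.85e-10), and cHet vagina differed from the uterus by 6.00 too. Evx1, an even-skipped homeobox gene of the caudal end of the embryo, had 7.40, 6.79, 7.88 and 8.15 in cKO vagina and 4.12, 4.81, 4.41 and 4.61 in cHet uterus, a difference of 3.07 (SE 0.25, adjusted p = 2.30e-07). Of 14 tested caudal patterning factors 5 were higher and 2 lower, with a median difference of 0.33. Eya1, a transcriptional co-activator of urogenital development, was not above background on any uterus array and was at least 1.82-fold higher (adjusted p = 1.97e-05). Tbx3, a T-box repressor, was lower by -0.98 (SE 0.20, adjusted p = 0.00225), while a dimmer probe of it had -0.51 (adjusted p = 0.228). Without cKO vagina replicate 3 the list had 3 higher members in place of 5.

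The Hox genes fell into 2 blocks of opposite sign. Of 22 tested Hox genes 9 were higher and 12 lower in cKO vagina, and 1, Hoxb9, was not called (0.09, adjusted p = 0.756). The genes of groups 12 and 13 were all higher: Hoxd12 by 1.36, Hoxd13 by 1.27 and Hoxa13 by 0.96 (adjusted p = 0.000124, 0.000190 and 0.00113). With Evx1 they make a list of 4 tested genes, of which 4 were higher, and the summed intensity of the list was 256.1 to 472.2 in cKO vagina and 84.9 to 122.8 in cHet uterus. Hoxa13 had 0.59 (adjusted p = 0.13) in the fit of replicates 1 and 2 and 1.32 in that of 3 and 4, and its dimmer probe had 0.22 (adjusted p = 0.315). Of 7 tested genes of groups 9 to 11, 6 were lower and 0 higher, with a median of -1.33 and a summed intensity of 299.9 to 393.2 in cKO vagina against 2511 to 3146 in cHet uterus. These lists do not overlap between the groups on any array.

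Below group 9 the sign followed the cluster. All 6 tested genes of Hoxb2 to Hoxb7 were higher in cKO vagina, by 0.71 (Hoxb3) to 1.34 (Hoxb5). All 6 tested genes numbered 3 to 8 in the Hoxa, Hoxc and Hoxd clusters were lower, by -0.82 (Hoxa7) to -3.34 (Hoxd4), and Hoxc6 and Hoxd3, above background on no cKO vagina array, were at least 4.49-fold and 2.64-fold lower. Hoxb7 had 9.81, 10.18, 10.03 and 10.25 in cKO vagina and 8.61, 9.01, 9.05 and 8.90 in cHet uterus, with no overlap (difference 1.18, SE 0.16, adjusted p = 6.53e-05). Hoxd4 had 4.59, 4.54, 4.44 and 4.40 in cKO vagina and 7.90, 7.93, 7.85 and 7.67 in cHet uterus (-3.34, SE 0.15, adjusted p = 2.40e-10). This split by cluster was seen after the values were known, and the cHet vagina values were close to those of cKO vagina: cHet vagina minus cHet uterus was 1.25 for Hoxb7 and -3.38 for Hoxd4. The call of Hoxb3 ended, at adjusted p of 0.0516 to 0.135, when any 1 of 7 arrays was left out: replicates 1, 3 and 4 of cKO vagina, 1 of cHet vagina, and 1, 2 and 4 of cHet uterus. That of Hoxb6 ended, at 0.0539 to 0.0838, when replicate 1 or 2 of cKO vagina or 3 or 4 of cHet uterus was. In replicates 1 and 2 alone Hoxb4 had an adjusted p of 0.0515.

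**Figure D2:**
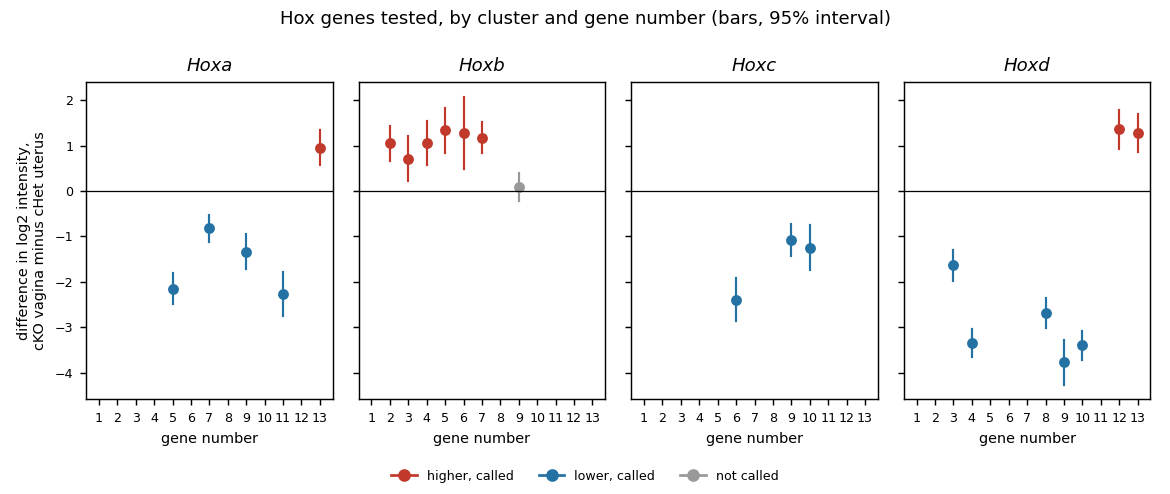
The 22 tested Hox genes are plotted by cluster and gene number, with the difference in log2 intensity, cKO vagina minus cHet uterus, and its 95% interval. Hoxa13, Hoxd12, Hoxd13 and Hoxb2 to Hoxb7 lie above 0, the other called genes lie below it, and Hoxb9 lies at 0.09. Hoxc6, Hoxc10 and Hoxd3 were above background on no cKO vagina array and are plotted at their fitted difference.

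The Hoxd cluster holds the turn of sign within a single run of neighbouring genes, in the order Hoxd13, Hoxd12, Hoxd11, Hoxd10, Hoxd9, Hoxd8, Hoxd3, Hoxd4 by the reference table. Hoxd13 had 5.19, 5.29, 6.09 and 5.66 in cKO vagina and 4.32, 4.16, 4.23 and 4.45 in cHet uterus, where it was above background on 1 of 4 arrays. Hoxd10 had 7.57, 7.30, 7.66 and 7.95 in cKO vagina and 11.11, 10.87, 11.18 and 10.89 in cHet uterus (-3.39, SE 0.15, adjusted p = 2.81e-10). Hoxd9 had 4.49, 4.49, 5.29 and 5.09 in cKO vagina and 8.03, 8.38, 9.0 and 9.02 in cHet uterus (-3.77, SE 0.23, adjusted p = 9.78e-09). Hoxd12 is thus on one side of 0 and Hoxd10 on the other, and Hoxd11 between them was not tested. The RefSeq promoter windows of these genes (GRCm38.p6, plus strand of chromosome 2, 250 bases before to 50 after the start, 4 of 4 matched) are shown because they stand on both sides of that turn. Capitals mark GGGCGG, the core of a GC box, and TATAAA, on either strand.
Hoxd13, chr2:74667975-74668274: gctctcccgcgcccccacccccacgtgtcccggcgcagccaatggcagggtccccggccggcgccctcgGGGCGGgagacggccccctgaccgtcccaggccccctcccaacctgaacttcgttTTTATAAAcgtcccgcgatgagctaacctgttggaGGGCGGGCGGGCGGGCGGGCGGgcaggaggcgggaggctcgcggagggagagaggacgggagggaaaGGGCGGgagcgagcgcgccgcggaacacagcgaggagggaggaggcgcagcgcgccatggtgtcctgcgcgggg
Hoxd12, chr2:74674763-74675062: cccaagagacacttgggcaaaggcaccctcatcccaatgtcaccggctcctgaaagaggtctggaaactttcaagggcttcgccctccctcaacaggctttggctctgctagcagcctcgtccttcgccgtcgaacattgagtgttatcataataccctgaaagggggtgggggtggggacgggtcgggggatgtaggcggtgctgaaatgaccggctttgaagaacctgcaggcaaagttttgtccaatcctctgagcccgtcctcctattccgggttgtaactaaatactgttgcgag
Hoxd10, chr2:74691641-74691940: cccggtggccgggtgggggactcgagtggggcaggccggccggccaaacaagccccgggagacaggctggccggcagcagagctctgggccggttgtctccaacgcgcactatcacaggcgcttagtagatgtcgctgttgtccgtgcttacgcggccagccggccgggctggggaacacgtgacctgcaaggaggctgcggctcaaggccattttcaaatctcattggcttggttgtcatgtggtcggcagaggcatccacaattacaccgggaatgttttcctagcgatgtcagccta
Hoxd9, chr2:74697513-74697812: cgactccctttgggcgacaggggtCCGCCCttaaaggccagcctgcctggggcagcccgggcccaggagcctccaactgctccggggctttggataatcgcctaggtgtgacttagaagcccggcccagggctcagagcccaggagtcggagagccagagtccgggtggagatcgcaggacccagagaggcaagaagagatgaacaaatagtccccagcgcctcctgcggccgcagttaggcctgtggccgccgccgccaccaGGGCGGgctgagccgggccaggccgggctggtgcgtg
Hoxd13 holds 7 matches of GGGCGG, 5 of which overlap their neighbours, and 2 overlapping matches of TATAAA, one on each strand. Hoxd9 holds 2 matches of GGGCGG, and Hoxd12 and Hoxd10 hold neither motif in these windows. Of 32851 such promoters 35.7% hold GGGCGG and 13.6% hold TATAAA.

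Other homeobox genes of the genital tract differed as well. Dlx6, a distal-less gene of genital and limb outgrowth, had 6.41, 6.59, 6.76 and 6.68 in cKO vagina and 4.89, 5.13, 5.49 and 5.04 in cHet uterus (1.47, SE 0.16, adjusted p = 4.96e-06). Msx1, a homeobox gene of uterine mesenchyme and epithelium, had 7.03, 7.84, 6.19 and 6.69 in cKO vagina and 9.57, 8.72, 8.87 and 8.82 in cHet uterus (-2.06, SE 0.34, adjusted p = 0.000342). Of the 4 tested Msx and Dlx genes 2 were higher and 1 lower.

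Signals that are known to act from vaginal mesenchyme upon the epithelium were higher in cKO vagina than in cHet uterus. Between cKO and cHet vagina 0 genes of the FGF list and of the BMP, activin and TGF-beta list were called. The summed intensity of the FGF list was 2588 to 3286 in cKO vagina and 3233 to 4135 in cHet vagina. That of the BMP, activin and TGF-beta list was 8562 to 10459 and 8888 to 10662. Bmp4, a BMP ligand, had 9.47, 9.41, 9.27 and 9.45 in cKO vagina against 7.10, 6.74, 6.69 and 5.94 in cHet uterus, with every cKO vagina array above every uterus array. The difference was 2.78 (SE 0.20, adjusted p = 7.53e-08), beside 2.55 for cHet vagina minus cHet uterus. Fgf10, a ligand of the FGFR2b receptor, had 7.97, 7.43, 8.19 and 8.10 in cKO vagina and was above background on no uterus array, so it was at least 10.8-fold higher (adjusted p = 1.34e-08). Fgf7, a second ligand of that receptor, was higher by 1.98 (SE 0.21, adjusted p = 3.85e-06). The dimmer probes of Fgf10 had 3.18 and 0.34 (adjusted p = 1.38e-07 and 0.11). Inhba, which encodes the subunit of activin A, was higher by 1.71 (SE 0.19, adjusted p = 9.30e-06), beside 2.05 for cHet vagina. Bmp7 was higher by 1.02, as was Ltbp1, a latent TGF-beta binding protein, by 1.19. A dimmer probe of Ltbp1 had 0.26 (adjusted p = 0.247).

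In the BMP, activin and TGF-beta list 6 of 23 tested genes were higher and 3 lower, with a median of 0.18, and the 3 lower ones were Bmpr1b, a receptor, and Id3 and Id4, inhibitors of bHLH factors that BMP signals can induce (-0.53, -0.85 and -0.99). In the FGF list 6 of 14 were higher and 0 lower, with a median of 0.36. Its members include Etv4 and Etv5, transcription factors induced by FGF signals, with 1.17 and 0.91 (adjusted p = 0.00415 and 0.00454), and Etv5 had an adjusted p of 0.0834 in replicates 1 and 2 alone. The receptor genes Fgfr1 and Fgfr2 were not called, with -0.22 and -0.24. Fgfr3, a further receptor gene, was above background on no uterus array. It had a fitted difference of 0.57, which is no exact size (adjusted p = 0.0338 in the fit of every named probe). Of 8 EGF receptor family genes 4 were higher, among them Btc, a ligand, by 1.17 (adjusted p = 1.44e-05) and Lrig1, an inhibitor of the receptor, by 1.40 (adjusted p = 9.20e-05). The receptor Egfr differed from this: it had -0.17 against the uterus (95% interval -0.49 to 0.15, adjusted p = 0.525), beside 0.74 for cHet vagina minus cHet uterus (adjusted p = 0.00199).

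Among Wnt genes more were lower than higher in cKO vagina. Of 31 tested genes 13 were lower and 3 higher, with a median of -0.02. Wnt4, a ligand required for Müllerian duct formation, had 5.12, 5.24, 5.52 and 5.46 in cKO vagina against 7.49, 7.2, 7.24 and 7.23 in cHet uterus (-1.95, SE 0.19, adjusted p = 2.03e-06), without overlap. Its cHet vagina mean of 6.17 ± 0.46 lay between the others (SD, n = 4), and cKO minus cHet vagina was -0.83 (adjusted p = 0.0832). Rspo3, a secreted amplifier of Wnt signals, was lower by -1.63, Notum, a secreted inhibitor, by -1.32, and Axin2, a common target of beta-catenin, by -1.31 (adjusted p = 2.77e-06, 1.47e-05 and 1.71e-05). Nkd1 and Nkd2, which beta-catenin signals also induce, were lower by -1.2 and -1.15, and Sp5, a further such target, was above background on no cKO vagina array and was at least 1.59-fold lower (adjusted p = 0.00257). The 3 higher genes were Wnt7b (1.09, adjusted p = 0.00064), Dkk3 (1.11) and Wif1 (0.90). A dimmer probe of Wnt7b had 0.25 (adjusted p = 0.378). With the arrays centred on their medians the list had 9 lower and 9 higher members.

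The IGF, retinoic acid and guidance lists had more lower than higher members. Igf2, the fetal insulin-like growth factor, had 11.48, 11.36, 12.17 and 11.06 in cKO vagina and 13.11, 13.72, 13.40 and 13.47 in cHet uterus (-1.91, SE 0.21, adjusted p = 6.64e-06), while Igf1 was higher by 1.75 (SE 0.30, adjusted p = 0.000506). Of 12 IGF genes 3 were higher and 5 lower, and the lower ones include the binding proteins Igfbp2, Igfbp5 and Igfbp6 (-0.86, -0.96 and -1.76). Of 14 retinoic acid genes 3 were lower and 0 higher, and these were the 3 retinaldehyde dehydrogenases, which make the ligand, Aldh1a1, Aldh1a2 and Aldh1a3 (-1.24, -1.99 and -0.57). A slightly dimmer probe of Aldh1a3 had -0.11 (adjusted p = 0.767). Of 22 guidance genes 7 were lower and 3 higher. Sema3a, a secreted repellent of axons, had the largest difference among them, -2.34 (SE 0.14, adjusted p = 7.67e-09), with 7.67, 7.16, 7.54 and 7.63 in cKO vagina and 9.94, 9.79, 9.88 and 9.75 in cHet uterus.

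**Figure D3:**
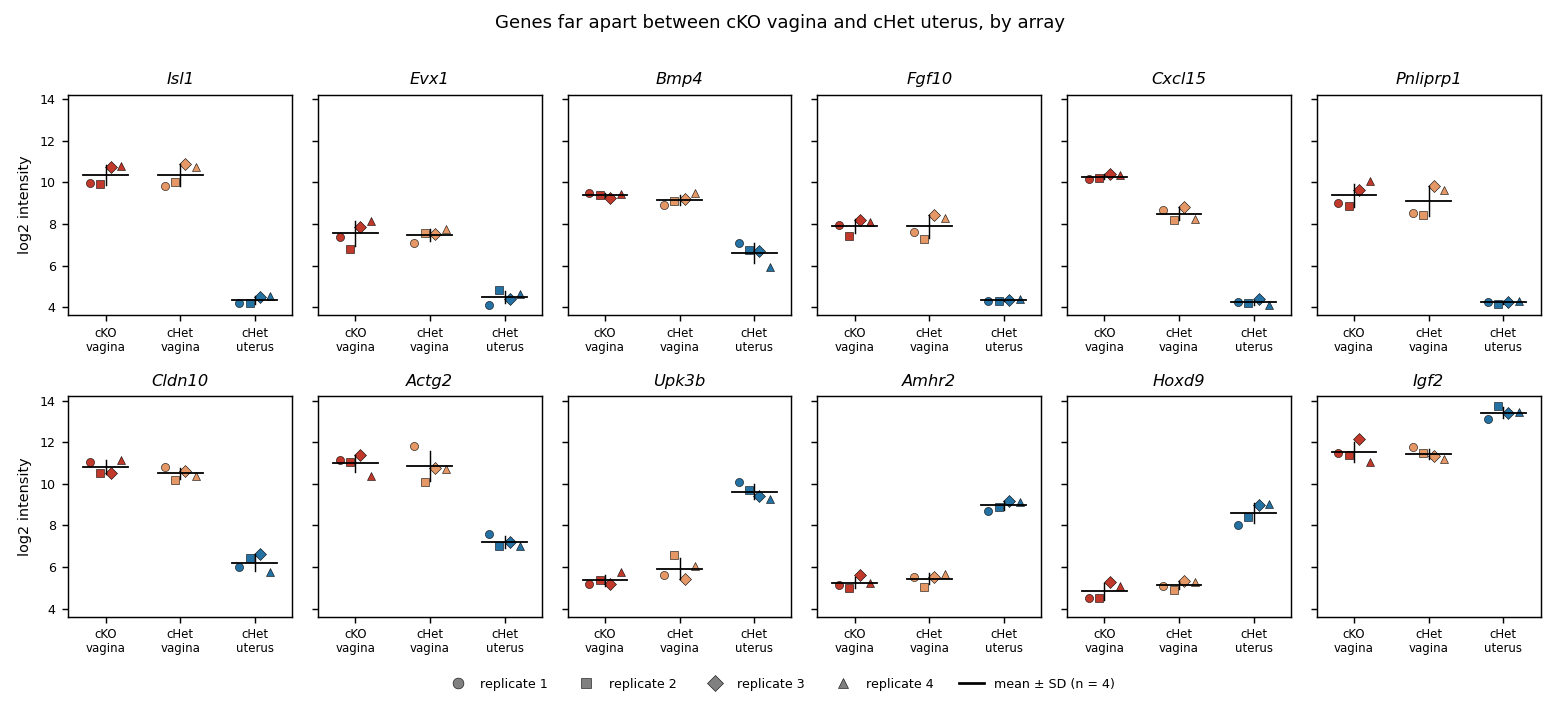
Log2 intensity of 12 genes on each array of cKO vagina, cHet vagina and cHet uterus, with 1 symbol per replicate number, the mean as a horizontal line and ± 1 SD as a vertical line (n = 4). In all 12 genes the 4 cKO vagina arrays lie on one side of the 4 cHet uterus arrays, and in Cxcl15 they also lie above the 4 cHet vagina arrays.

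Epithelial genes differed too. The Trp63 probe had 9.07, 9.73, 9.43 and 9.91 in cKO vagina and 4.55, 4.53, 4.61 and 4.76 in cHet uterus, a difference of 4.92 (SE 0.17, adjusted p = 1.99e-11), so RNA that this probe detects was abundant in cKO vagina. Whether the probe lies within the deleted stretch is unknown, so its level is no check of the knockout. Runx1, a partner in switching on Trp63, had 7.19, 6.67, 6.81 and 6.74 in cKO vagina against 4.16, 4.18, 4.46 and 4.82 in cHet uterus (2.45, SE 0.23, adjusted p = 1.32e-06), and was above background on 1 uterus array. Of 14 tested epithelial transcription factors, Trp63 among them, 11 were higher and 0 lower, with a median of 1.19. For cHet vagina minus cHet uterus 13 were higher and 0 lower, with a median of 1.56. Against cHet vagina 2 of the 14 were lower in cKO vagina and 0 higher. Grhl2, which maintains epithelial junctions, was higher by 1.63, Klf4 of differentiating epithelium by 1.46, and Elf5 of keratinocytes and gland progenitors by 1.32 (adjusted p = 1.79e-06, 1.14e-05 and 0.000138).

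Most of the listed epithelial adhesion genes were higher. Of 22 tested genes of epithelial adhesion and polarity 17 were higher and 0 lower, with a median of 1.16, and their summed intensity was 9135 to 11021 in cKO vagina, 8770 to 11089 in cHet vagina and 3004 to 3343 in cHet uterus. Cldn10, a tight junction claudin, had 11.07, 10.53, 10.53 and 11.14 in cKO vagina and 6.02, 6.45, 6.61 and 5.77 in cHet uterus (4.61, SE 0.21, adjusted p = 2.93e-10). Cldn4 was higher by 1.62, Rab25 of apical membrane traffic by 1.68, and Esrp2, an epithelial splicing factor, by 1.74 (adjusted p = 2.40e-05, 6.22e-07 and 2.04e-05). The simple-epithelium keratins Krt8 and Krt18 were higher by 0.84 and 1.13 (SE 0.19 and 0.20, adjusted p = 0.00480 and 0.000756). Both vaginal groups had more of the simple keratins than the uterus. Their summed intensity was 4971 to 8672 in cKO vagina, 6126 to 9846 in cHet vagina and 2943 to 3878 in cHet uterus. The median difference from uterus was 0.84 for cKO vagina and 1.05 for cHet vagina. Of the 5 tested simple keratins 3 were higher and 1, Krt23, was lower (-0.94, adjusted p = 0.00579, with -0.51 and adjusted p = 0.138 in replicates 3 and 4 alone).

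Genes of the stratified layer are given in 3 kinds: not called against the uterus, between the organs, and called against the uterus but not against cHet vagina. Col17a1, a transmembrane collagen of hemidesmosomes, had 7.07, 5.70, 4.80 and 5.18 in cKO vagina, 8.94, 8.86, 8.59 and 8.72 in cHet vagina and 4.51, 4.92, 5.06 and 4.63 in cHet uterus. The cKO vagina and uterus values overlap, and the difference of 0.91 did not pass the test (SE 0.34, 95% interval 0.19 to 1.63, adjusted p = 0.0772), beside 4.00 for cHet vagina minus cHet uterus. It passed without cKO vagina replicate 3 (1.21, adjusted p = 0.0137), in replicates 1 and 2 alone (1.67, adjusted p = 0.00387), with the replicate block by set (adjusted p = 0.0353) and in a second probe (1.13, adjusted p = 0.0193). Lamb3, a laminin-332 chain, had 6.69, 6.81, 6.03 and 5.74 in cKO vagina and 6.85, 6.55, 6.20 and 5.83 in cHet uterus (-0.04, 95% interval -0.65 to 0.57, adjusted p = 0.949), beside 1.44 for cHet vagina. Dapl1, a gene of early squamous cells, had 0.44 (95% interval -0.01 to 0.88, adjusted p = 0.181) beside 2.80, and 0.62 without cKO vagina replicate 3 (adjusted p = 0.0426). Hey1, a Notch target, had -0.26 (95% interval -0.73 to 0.22, adjusted p = 0.50) beside 1.22. These genes were picked after their values were seen, as ones called between cKO and cHet vagina.

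Art4, a cell-surface ADP-ribosyltransferase gene, was lower in cKO vagina than in either control organ. It had 4.60, 4.82, 4.26 and 4.34 in cKO vagina, above background on 2 of 4 arrays, and 5.58, 5.12, 4.86 and 5.10 in cHet uterus, with no overlap. The difference was -0.66 (SE 0.17, adjusted p = 0.0123), beside 1.69 for cHet vagina minus cHet uterus and -2.35 for cKO minus cHet vagina (adjusted p = 4.41e-06). It was -0.52 with the arrays centred on their medians (adjusted p = 0.0702), and -0.64 when fitted to replicates 1 and 2 (adjusted p = 0.0958).

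The second kind lay between the organs. Anxa8, an annexin of squamous epithelium, had 6.36, 6.27, 5.73 and 5.68 in cKO vagina, 7.16, 7.70, 7.45 and 7.95 in cHet vagina, and 4.63, 4.12, 4.48 and 4.29 in cHet uterus. No array of a group reached into the next, and cKO vagina was higher than uterus by 1.63 (SE 0.20, adjusted p = 1.74e-05) and lower than cHet vagina by -1.55 (SE 0.20, adjusted p = 0.00114). Krt17, found in stratified epithelium and skin appendages, had 11.16, 11.15, 10.11 and 10.32 in cKO vagina, 12.71, 12.89, 12.17 and 12.17 in cHet vagina and a mean of 9.76 ± 0.20 in cHet uterus (SD, n = 4). Its difference from uterus was 0.92 (SE 0.24, adjusted p = 0.0118), but 0.38 in replicates 3 and 4 alone (adjusted p = 0.153). Upk2, a uroplakin, had 7.63, 7.40, 7.13 and 7.60 in cKO vagina, 9.20, 8.82, 8.56 and 8.61 in cHet vagina and 4.34, 4.48, 4.91 and 4.18 in cHet uterus (cKO vagina minus uterus 2.96, SE 0.18, adjusted p = 1.06e-08). Sfn, a 14-3-3 protein of squamous cells, was higher than in uterus by 1.09 (SE 0.31, adjusted p = 0.0207). That call ended, at adjusted p of 0.0516 to 0.0738, when replicate 1 or 2 of cKO vagina or 2 or 3 of cHet uterus was left out, and Sfn had 0.52 (adjusted p = 0.0887) in replicates 3 and 4 alone.

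The basal keratins varied widely between the cKO vagina pools. Krt14, a keratin of basal cells, had 10.05, 9.11, 6.77 and 8.59 in cKO vagina, 11.25, 11.64, 10.20 and 10.01 in cHet vagina and 7.53, 7.88, 6.47 and 6.55 in cHet uterus. Over all 4 replicates, replicate 3 of cKO vagina lay within the uterus values and replicate 1 within those of cHet vagina. Within replicates 3 and 4, cKO vagina replicate 3 (6.77) lay above cHet uterus (6.47 and 6.55). Within replicates 1 and 2, cKO vagina replicate 1 (10.05) lay below cHet vagina (11.25 and 11.64). The difference from uterus was 1.52 (SE 0.55, 95% interval 0.36 to 2.68, adjusted p = 0.0669), and 2.14 without cKO vagina replicate 3 (adjusted p = 0.00236). With replicates 1 and 2 set apart from 3 and 4 as a replicate block by set it had an adjusted p of 0.00111, and with a replicate block by number 0.00136. Krt15, a further basal keratin, had 9.60, 9.16, 7.11 and 8.56 in cKO vagina against 5.95, 6.20, 6.02 and 6.11 in cHet uterus, with no overlap (2.54, SE 0.43, adjusted p = 0.000441), beside 4.03 for cHet vagina. Krt5, the partner of Krt14, had 5.39, 4.72, 4.11 and 4.44 in cKO vagina and was above background on no uterus array (0.49, 95% interval -0.16 to 1.14, adjusted p = 0.328), with 0.87 in replicates 1 and 2 alone (adjusted p = 0.0466). Of 9 tested stratified keratins 3 were higher than in uterus and 0 lower. The count of higher ones was 2 to 5 when 1 array was left out (5 without cKO vagina replicate 3) and 1 to 7 over all alternatives. Krt4, 1 of the 3, was above background on no uterus array, and its call ended under 7 of 23 alternatives. The summed intensity of the 9 keratins was 4908, 3975, 1973 and 2686 in cKO vagina replicates 1 to 4, 6985 to 13645 in cHet vagina and 1626 to 2000 in cHet uterus.

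The third kind includes the hemidesmosome integrin. Itgb4 and Itga6, which form the integrin of hemidesmosomes, were higher than in uterus by 1.15 and 1.17 (SE 0.20 and 0.21, adjusted p = 0.000609 and 0.000766), and cKO minus cHet vagina was -0.49 and -0.30 (95% intervals -0.92 to -0.06 and -0.75 to 0.15, adjusted p = 0.596 and 0.864), so lower levels than in cHet vagina are not excluded. Itgb4 had an adjusted p of 0.0502 in replicates 1 and 2 alone, and the mean of the Itga6 probes gave 0.57 (adjusted p = 0.063). Of 11 tested hemidesmosome and basement membrane genes 6 were higher than in uterus and 1, Col7a1, the anchoring fibril collagen, was lower (-1.24). Against cHet vagina 2 of the 11, Col17a1 and Lamb3, were lower and 0 higher. Dsg2, a desmosomal cadherin of simple and basal cells, was higher by 1.44 (SE 0.15, adjusted p = 4.85e-06), though 2 dimmer probes of it had 0.41 and -0.02 (adjusted p = 0.200 and 0.961). Of 14 squamous differentiation genes 7 were higher and 1, Lor, the cornified envelope protein loricrin, was lower (-0.89), with a median of 0.64, and the count of higher genes was 4 to 8 when 1 array was left out. Against cHet vagina 4 of the 14, Sfn, Ppl, Anxa8 and Dapl1, were lower and 0 higher. Krtdap, a keratinocyte differentiation gene, was higher by 1.10 (adjusted p = 0.00879), beside 0.91 for cHet vagina.

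**Figure D4:**
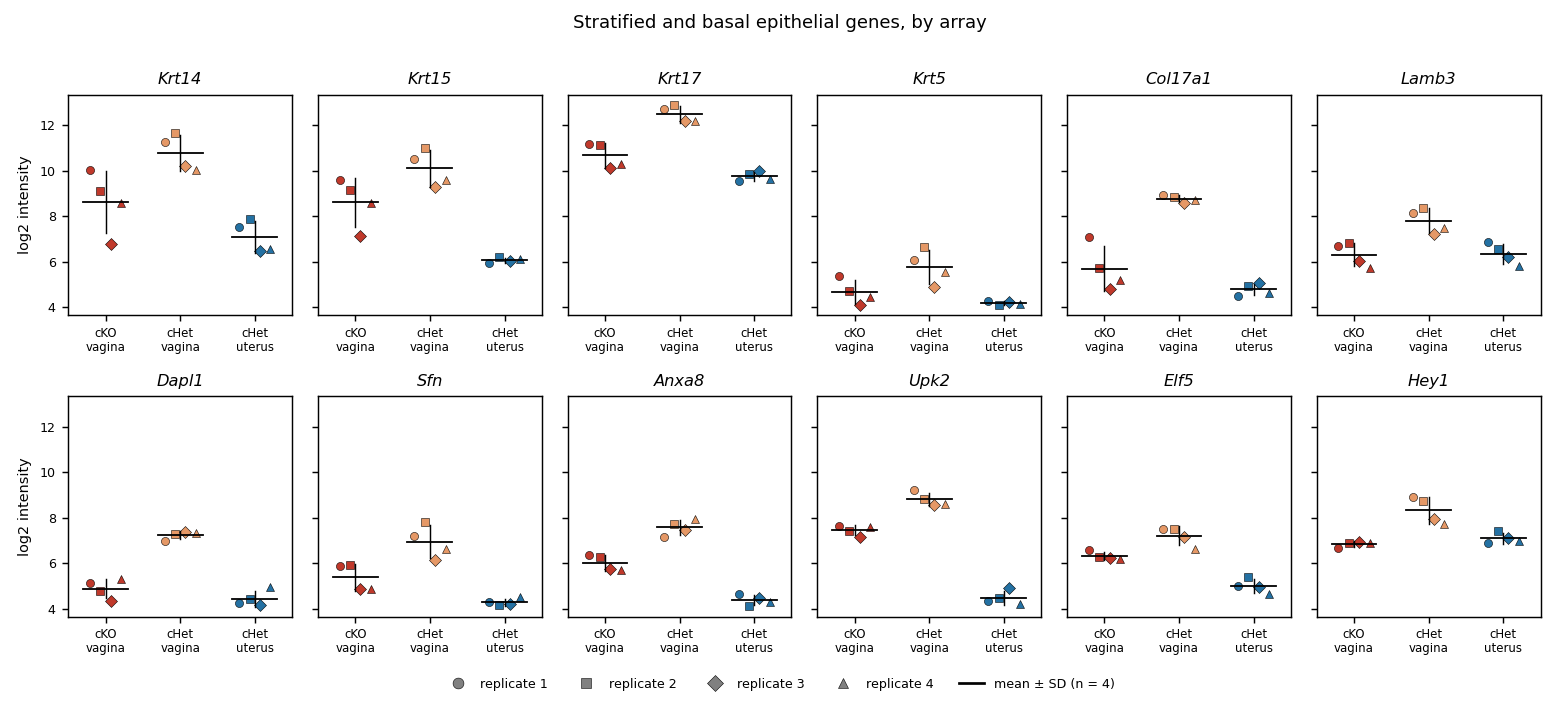
Log2 intensity of 12 stratified or basal epithelial genes on each array, with 1 symbol per replicate number, the mean as a horizontal line and ± 1 SD as a vertical line (n = 4). Lamb3, Dapl1, Col17a1 and Hey1 overlap between cKO vagina and cHet uterus, Anxa8, Krt17, Upk2 and Elf5 lie between the control organs, and Krt14 spans 6.77 to 10.05 in cKO vagina.

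Several secretory genes were far higher in cKO vagina. Cxcl15, a chemokine of lung and gland epithelium, had 10.15, 10.19, 10.43 and 10.34 in cKO vagina, 8.68, 8.20, 8.82 and 8.26 in cHet vagina, and was above background on no uterus array. It was at least 55.2-fold higher than in uterus (adjusted p = 3.86e-13) and also higher than in cHet vagina, by 1.79 (SE 0.15, adjusted p = 2.04e-05). Pnliprp1, a relative of pancreatic lipase, had 9.01, 8.88, 9.62 and 10.07 in cKO vagina and was at least 30.0-fold higher than in uterus (adjusted p = 6.33e-09). Clca1, a secreted protein of goblet cells, had 8.58, 9.31, 8.33 and 9.35 in cKO vagina and 4.25, 4.25, 4.55 and 4.21 in cHet uterus (4.58, SE 0.26, adjusted p = 3.66e-09), and was higher than in cHet vagina by 1.65 (adjusted p = 0.00592). Lcn2, an iron-binding antimicrobial protein, was higher than in uterus by 4.19 and the tetraspanin Tspan8 by 3.92 (adjusted p = 4.95e-09 and 3.66e-09). Of 15 tested secretory and ductal genes 11 were higher and 0 lower, with a median of 1.41 beside 0.97 for cHet vagina minus cHet uterus, and their summed intensity was 27619 to 34817 in cKO vagina and 17120 to 19468 in cHet uterus.

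A few genes set cKO vagina apart from both control organs on the high side. Cdh16, a cadherin of kidney tubule and duct epithelium, had 9.66, 10.34, 10.25 and 10.23 in cKO vagina and 8.49, 8.33, 9.14 and 8.90 in cHet uterus. It was higher than in uterus by 1.41 (SE 0.23, adjusted p = 0.000334), where cHet vagina minus cHet uterus was 0.12 (adjusted p = 0.799). Wscd1, a sulfotransferase relative, was higher than in uterus by 1.51 and Wif1, a secreted Wnt inhibitor, by 0.90 (adjusted p = 1.51e-05 and 0.000119), beside 0.33 and 0.24 for cHet vagina (adjusted p = 0.252 and 0.262). Plekhs1 was higher than in uterus by 0.62 (adjusted p = 0.0237), and its call ended, at 0.0672 to 0.0796, when replicate 2 or 4 of cKO vagina or 3 or 4 of cHet uterus was left out. These genes were picked after values were seen, from those higher in cKO than in cHet vagina.

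Müllerian and glandular epithelial genes differed in both directions. Of 10 tested genes 5 were higher in cKO vagina and 2 lower, with a median of 0.33. Their summed intensity did not follow the counts: it was 670.7, 889.6, 708.5 and 772.6 in cKO vagina and 794.8 to 897.8 in cHet uterus. Foxa2, known from uterine glands, had 5.43, 6.16, 5.75 and 5.60 in cKO vagina and was above background on no uterus array, so it was at least 2.37-fold higher (adjusted p = 9.06e-06). Pax8, a Müllerian epithelial factor, was higher by 1.19 (SE 0.19, adjusted p = 0.000218), but its 2 dimmer probes had 0.30 and 0.24 (adjusted p = 0.283 and 0.463). Gata6, an endoderm and mesoderm GATA factor, was lower by -2.51 (SE 0.22, adjusted p = 4.90e-07) and Sox17 by -0.74. Both had like differences in cHet vagina, -2.46 and -0.64.

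Genes of uterine mesenchyme were lower. Of 14 tested genes of Müllerian mesenchyme and uterine stroma 12 were lower in cKO vagina and 1, Osr1, above background on no uterus array, was at least 1.23-fold higher, with a median of -1.12 and a summed intensity of 4175 to 5556 in cKO vagina against 9320 to 10372 in cHet uterus. Amhr2, the receptor of anti-Müllerian hormone, had 5.14, 5.00, 5.60 and 5.23 in cKO vagina and 8.68, 8.90, 9.15 and 9.14 in cHet uterus. No values overlap, and the difference was -3.73 (SE 0.17, adjusted p = 3.72e-10), with -1.45 and -1.37 in 2 dimmer probes. Tcf21, a bHLH factor of visceral mesenchyme, was lower by -1.99 (SE 0.15, adjusted p = 1.26e-07), and Hand2, a uterine stromal factor, by -0.99. Scin, Serpinb6b, Lbhd2, Moxd1, Lbh, Ildr2 and Jakmip1 were among the 12 largest differences on the lower side, at -3.57 to -2.77.

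Esr1 and Pgr were not called. Esr1, the estrogen receptor alpha gene, had 10.39, 9.80, 9.52 and 9.75 in cKO vagina and 9.82, 9.79, 9.86 and 9.86 in cHet uterus (0.03, 95% interval -0.32 to 0.39, adjusted p = 0.927). Pgr, the progesterone receptor gene, had -0.25 (95% interval -0.63 to 0.13, adjusted p = 0.393). Esr2, the beta receptor, was higher by 0.68 (SE 0.14, adjusted p = 0.00283), beside 1.2 for cHet vagina, and had 0.44 (adjusted p = 0.0879) in replicates 3 and 4 alone. A dimmer probe of Esr2 had 0.38 (adjusted p = 0.173). Nr3c1, the glucocorticoid receptor, was above background on no cKO vagina array and was at least 1.42-fold lower (adjusted p = 0.00308), with -0.36 (adjusted p = 0.364) in replicates 1 and 2 alone. Of 9 tested genes 1 was higher (11.1%) and 2 lower (22.2%), beside 8.84% and 9.35% of all genes tested.

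Endothelial and mesothelial markers differed between the organs, and their part in the differences above was not tested. Of 14 tested endothelial genes 10 were lower in cKO vagina and 0 higher, with a median of -0.82 and a summed intensity of 1686 to 2255 in cKO vagina against 3695 to 4440 in cHet uterus. Esam, an endothelial adhesion molecule, was lower by -1.44 and Emcn by -1.0 (adjusted p = 9.39e-06 and 0.000245), while Vwf had 0.27. Of 9 mesothelial genes, which mark the outer lining of the uterus, 4 were lower and 1 higher. Upk3b, a uroplakin found in mesothelium, had 5.18, 5.37, 5.18 and 5.74 in cKO vagina and 10.09, 9.72, 9.41 and 9.28 in cHet uterus (-4.26, SE 0.24, adjusted p = 3.55e-09), and Msln, mesothelin, was lower by -2.09 (adjusted p = 6.81e-07). The sum of this list was 738.9 to 1233 in cKO vagina and 1349 to 2202 in cHet uterus. Every tested marker of both lists was above background on at least 1 array of each organ.

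Smooth muscle genes were divided. Actg2, the visceral smooth muscle actin, had 11.13, 11.04, 11.38 and 10.39 in cKO vagina and 7.59, 7.02, 7.22 and 7.0 in cHet uterus (3.78, SE 0.29, adjusted p = 1.37e-07), and Myh11, smooth muscle myosin, was higher by 2.47 (adjusted p = 3.47e-05). Des, the intermediate filament desmin, was lower by -1.34 (adjusted p = 0.00263), Acta2 had 0.10, and over 13 tested genes 3 were higher and 1 lower with a median of -0.00. Of 15 collagen and matrix genes 6 were higher and 1, Fn1, was lower (-1.25, adjusted p = 0.000306). Postn, an adhesion protein of dense stroma, was higher by 1.51 and Col14a1, a fibril-associated collagen, by 1.5 (adjusted p = 1.55e-05 and 9.39e-06).

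Hdc, which makes histamine, had 10.23, 10.22, 11.37 and 11.29 in cKO vagina and 7.30, 6.76, 6.63 and 6.69 in cHet uterus (3.93, SE 0.37, adjusted p = 1.48e-06), while 3 of the other mast cell genes were lower and 0 higher, among them Srgn, a granule proteoglycan, at -2.34 (adjusted p = 3.92e-06) and Kit, a receptor of mast cells, at -0.66 (adjusted p = 0.00596). Kit was not called with replicates 3 and 4 only (adjusted p = 0.112) or with centred arrays (-0.42, adjusted p = 0.114). Of the mast cell proteases Cpa3 was lower by -1.21 (adjusted p = 0.0299), and Cma1, Tpsb2, Tpsab1 and Mcpt4 had -0.65, -0.34, -0.10 and 0.18. The call of Cpa3 ended under 10 of 23 alternatives, among them replicates 1 and 2 only (-0.48, adjusted p = 0.425), centred arrays (-1.01, adjusted p = 0.0613), and leaving out replicate 2, 3 or 4 of cKO vagina or 1 or 3 of cHet uterus (adjusted p = 0.0513 to 0.105). Cd14, a co-receptor for bacterial lipopolysaccharide, was higher by 2.59 (SE 0.21, adjusted p = 2.56e-07), while of the other 14 macrophage and leukocyte genes 1 was lower and 0 higher. Ret, a receptor of enteric and urogenital neurons, and Sox10 of Schwann cells were above background on no uterus array and were at least 2.75-fold and 1.65-fold higher (adjusted p = 1.58e-05 and 0.000219), whereas Stmn2, a neuronal protein, was lower by -2.18 (adjusted p = 1.10e-07). Haemoglobin was not called: Hba-a1 had 13.83, 13.24, 14.84 and 13.54 in cKO vagina and 14.33, 14.25, 13.83 and 13.93 in cHet uterus (-0.22, adjusted p = 0.632), and the red blood cell sum ran from 27109 to 83359 in cKO vagina, with the highest value in replicate 3. The skeletal muscle sum ran from 428.0 to 2258 in cKO vagina and from 837.7 to 1086 in cHet uterus.

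Among 6 urothelial genes 4 were higher and 2 lower, namely Upk3b and Upk1b (-1.51), and Upk1a was higher by 2.51 (adjusted p = 0.000105). Of 6 interferon-induced genes 3 were lower, with Oasl2 at -1.72 and Rsad2 at -1.35. A dimmer probe of Oasl2 had -0.23 (adjusted p = 0.455). In replicates 3 and 4 only, Rsad2 had -0.89 (adjusted p = 0.272) and Upk1b -1.18 (adjusted p = 0.194). Of 7 Hedgehog genes 2 were higher and 1, Gli2, was lower (-1.02), and of 15 Notch genes 2 were higher and 3 lower, with Hes1, a target, at 1.19 and Mfng, a modifier of the receptors, at -1.04. The desmosome list had 2 of 5 higher, the skeletal muscle list 1 higher and 1 lower of 12, the nerve list 4 higher and 1 lower of 9, the adipocyte list 1 of 2 higher, and the ovary, oviduct and kidney list 1 of 6 higher. Of all genes tested 8.84% were higher and 9.35% lower. The skeletal muscle list (8.33% each way) and the macrophage and leukocyte list (6.67% each way) lay near those shares. The call of Mylpf, the higher skeletal muscle gene, ended under 10 of 23 alternatives.

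Of 20 tested cell cycle genes 3 were lower and 0 higher, with Ccne1, cyclin E1, at -0.97 (adjusted p = 0.00502). Of 11 targets of p53 3 were higher (27.3%) and 2 lower (18.2%), beside 8.84% and 9.35% of all genes tested. Cdkn1a, the cell cycle inhibitor p21, had 7.77, 7.41, 6.94 and 6.57 in cKO vagina and 5.21, 5.32, 5.42 and 5.66 in cHet uterus (1.77, SE 0.24, adjusted p = 4.37e-05), and Phlda3, an inhibitor of Akt, was lower by -1.34 (adjusted p = 7.43e-05). Cdkn1a had 1.71 for cHet vagina minus cHet uterus. Its dimmer probes had 0.85 and 0.36 for cKO vagina minus cHet uterus (adjusted p = 0.00391 and 0.0893).

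**Figure D5:**
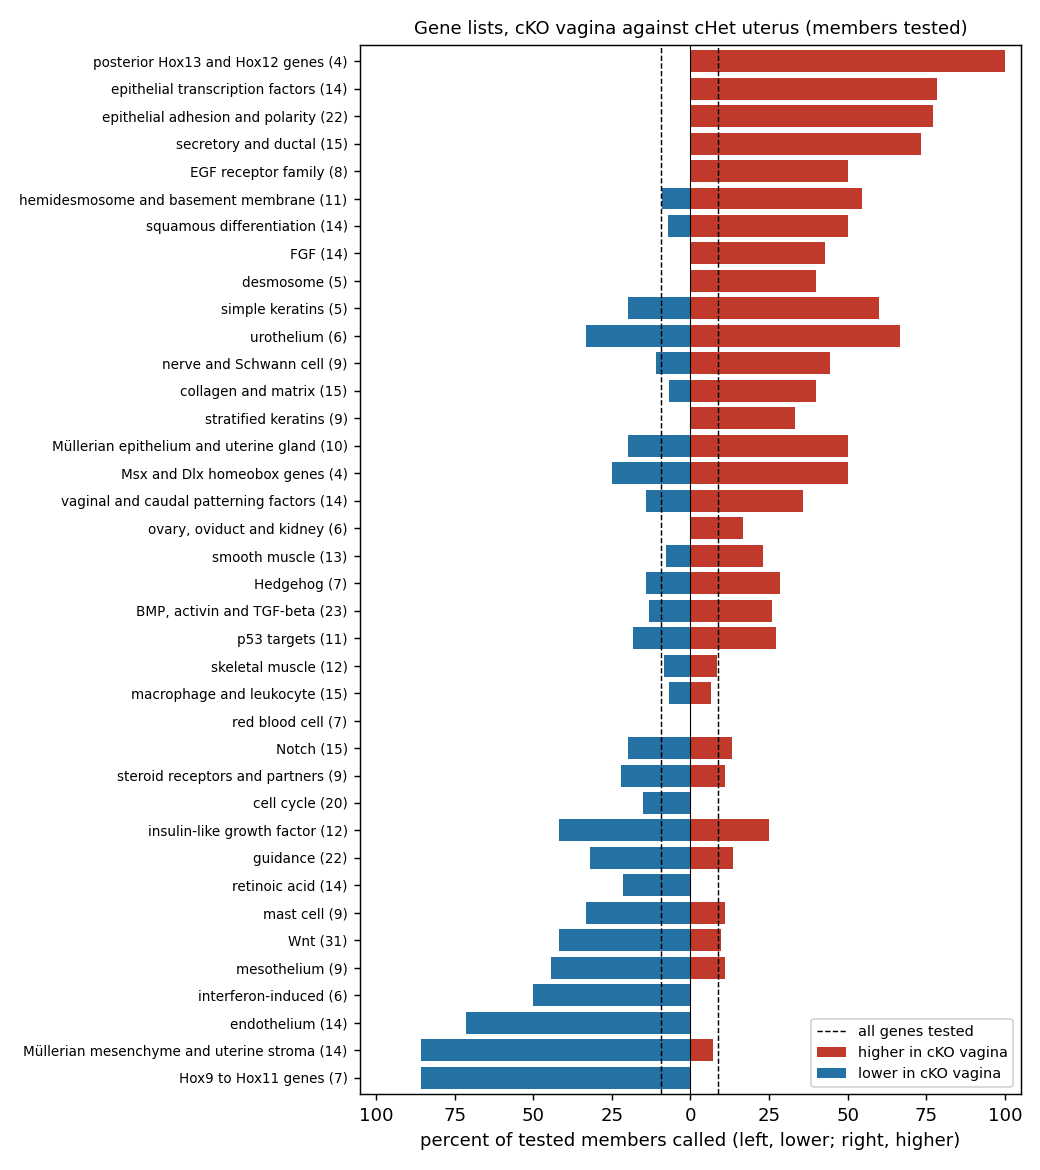
For each gene list with at least 4 tested members, the bars give the percent of tested members called higher (right) and lower (left) in cKO vagina against cHet uterus, and the dashed lines mark the 8.84% and 9.35% of all genes tested. Groups 12 and 13 of the Hox genes, epithelial transcription factors, epithelial adhesion and secretory genes lie furthest to the higher side, and Hox genes of groups 9 to 11, uterine stroma and endothelium furthest to the lower side.

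Between cKO and cHet vagina themselves 43 of the 11271 genes were called (0.382%), 6 higher (0.0532%) and 37 lower (0.328%), where cHet vagina against cHet uterus gave 2074 (18.4%), 1053 higher (9.34%) and 1021 lower (9.06%). The 3 comparisons share arrays, so their counts are given side by side only.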

How the data were processed

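RNA from 12 pools of mouse tissue was labelled as biotin cRNA and read on 1-colour Illumina bead arrays, per the labels' protocols. The deposited values of the authors are intensities on a linear scale, for 45281 probes per array, with nearly equal array means; no source used here names their normalization. A further 24 columns of per-sample values matched no label and were not used, so background was estimated within each array from the mode of its intensities. Intensities were corrected with normexp (offset 16), brought to common quantiles and logged (log2) in limma 3.58.1 under R 4.3.3. Probes needed at least 4 of 12 arrays above the 99% point of background. By the platform annotation 34885 probes had 1 symbol, 18 had several and 10378 had none; 78 found no partner in the reference table, and 0 symbols changed. Of 21018 probes kept 17880 had 1 symbol, and each of 11271 genes was read by its brightest one (4452 had a choice). The number of arrays limits the precision.

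limma (lmFit, eBayes) estimated the group means from all 12 arrays (15.8 degrees of freedom), without a replicate block. Two-sided p-values from limma were adjusted by Benjamini-Hochberg over 11271 genes. Intervals are 95%. Where no array of a group was above background, a fold is a bound: the bright group's mean against the mean of, per array, the higher of the lowest signal above background and the probe's own. Summed intensities add the normalized linear values of a list's tested members. On simulated log2 values with 200 changed genes for cKO vagina minus cHet uterus, the fit recovered 11.9% of changes of 0.5, 85.1% of 1 and 100% of 2, with 6 false among 137 calls.

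Replicates of cKO vagina and cHet uterus share numbers in the labels. Correlations of the deviations of same-numbered arrays were 0.0729 to 0.309, over 0.1 in 3 of 4 pairs. Of the arrays, 2 of cKO vagina and 1 of cHet uterus correlated best with their own number. The main fit did not pair the samples, and it keeps the shift between replicates 1 and 2 and replicates 3 and 4 in its residual spread. With a block by set 1225 genes were higher and 1300 lower, against 996 and 1054 without. Krt14 had a limma adjusted p of 0.00111 with that block and 0.0669 without. Some genes not called in the main fit are therefore called with the block. The members and the 39 gene lists were chosen with earlier results of these data known. Named genes are, in each direction, the 12 largest differences among called genes without overlap, per list the called members with the largest change (4 at most, or its brightest member where none was called), and Hoxa13, Isl1, Esr1, Pgr, Krt8, Krt18, Krt5, Krt14, Runx1, Trp63 and Pax2 (not tested). The genes of the Hox clusters outside that rule, the genes picked from cKO against cHet vagina, and members given to complete a list's count were chosen after values were seen. Alternatives changed the background correction, normalization, filter, probe choice, arrays in the fit, replicate block and each array left out.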

Additional observations from a re-analysis of the deposited data

Results flagged for a closer look

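Among 468 groups of 4 arrays of the genes named, 19 held a log2 level that stood apart from the other 3. That is no more than the about 5% of groups that chance marks, so the arrays below are listed for inspection only. In cKO vagina the array apart was high for Dlx5 (5.71, replicate 2), Rsad2 (6.57, replicate 3) and Hoxc9 (4.55, replicate 1), and low for Dsg2 (7.77, replicate 2), Robo4 (7.5, replicate 2), Cdh16 (9.66, replicate 1), Wif1 (5.19, replicate 1) and Col14a1 (7.85, replicate 4). In cHet vagina it was high for Des (8.53, replicate 1), Hoxa5 (4.71, replicate 1), Wscd1 (4.85, replicate 4) and Hoxc9 (4.22, replicate 4), and low for Ltbp1 (7.76), Cldn5 (5.31) and Sox10 (4.75), all in replicate 2. In cHet uterus it was high for Wnt4 (7.49, replicate 1), Tnnt1 (9.55, replicate 2), Clca1 (4.55, replicate 3) and Grhl2 (6.29, replicate 3). Rsad2, an interferon-induced gene, had 4.68, 4.73 and 4.51 in the other cKO vagina arrays.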

How the results depend on the processing

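Of 3587 values of the 156 named genes under alternatives, 3437 kept their direction and side of the threshold, 122 kept the direction but were no longer called, 18 became called and 10 changed sign; 119 genes did not change under any. With the arrays centred on their medians 642 genes were lower (1459 higher, 69.4% of calls, against 48.6% with quantile normalization), as the median of all genes moved to 0.13. With a replicate block by number 1182 genes were higher and 1249 lower, and with a block by set 1225 and 1300; the blocks gave 77 and 94 genes between cKO and cHet vagina. Of the arrays, 2 of cKO vagina and 1 of cHet uterus correlated best with their own number, a hint from the data and not from the design; the sets 1 and 2 against 3 and 4 were shared by all groups on the second principal component. Replicates 1 and 2 alone gave 626 higher, 690 lower, 1334 between cHet vagina and uterus and 72 between cKO and cHet vagina, and replicates 3 and 4 alone gave 13 for the last. Leaving out 1 array gave 837 to 1015 higher genes, 845 to 1067 lower, 1752 to 2119 between cHet vagina and uterus, and 21 to 46 between cKO and cHet vagina (23 with replicate 1 of cKO vagina left out, 21 and 23 with 1 and 2 of cHet vagina). The sign turned for Egfr (0.014, arrays centred), Esr1 (-0.23 in replicates 3 and 4 alone, -0.14 without cKO vagina replicate 1), Hba-a1 (0.31 in replicates 3 and 4 alone) and Lamb3 (0.19 centred, 0.050 in replicates 1 and 2 alone, and -0.22 to 0.15 when 1 array was left out), none of which was called; the cause was not tested. Without background correction, or with an offset of 50, differences of dim genes were smaller by construction. Hoxb3, Hoxb6 and Sfn were not called under either or without the filter on dim probes, and Art4 was not called under either. The same held, under either and without the filter, for Krt4, Lypd3 of the squamous list, Mylpf, Cpa3, Sox21, Trim29 and Mir205hg. Signal near background limits differences of genes that one group did not bring above it, which are given as bounds.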
